A study of Homo sapiens with 9 samples.

Results

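The expression of 10 genes of the nuclear factor kappa B (NF-κB) pathway was measured in OVCAR5, an established human ovarian cancer cell line of epithelial origin. They comprise the 5 genes that encode the NF-κB subunits (NFKB1, NFKB2, RELA, RELB and REL), 2 genes for IκB inhibitors (NFKBIA and NFKBIE) and 3 genes for proteins that act on the receptor complexes upstream (TNFAIP3, BIRC3 and TRAF1). The genes were chosen by symbol and matched through the GENCODE annotation to the identifiers that were counted. All 10 had an identifier among the 60649 in the table, and all 10 were among the 19674 genes that passed a filter on low counts and were tested.

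The study examined how METTL3, the catalytic subunit of the main mRNA N6-methyladenosine methyltransferase, relates to platinum resistance in ovarian cancer. Its 9 polyA-selected RNA-seq libraries fall into 3 groups of 3, labelled NC, SM2 and SM4. NC is described in the series text as a parental control and elsewhere in the study as carrying a control hairpin, while SM2 and SM4 are described as METTL3 knockdowns. All cells went through lentiviral transduction and puromycin selection according to the labels, and no drug treatment is given for any library. The labels do not say which hairpin SM2 or SM4 carries, nor whether the 3 libraries of a group came from separate cultures. If they did not, the p-values below measure only the spread between these libraries, which may be technical. The source field of the SM4 libraries names OVCAR6, OVCAR7 and OVCAR8, although all 9 libraries are entered as OVCAR5 under cell line.

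The libraries held between 44103272 and 63693728 counts. METTL3 mRNA went against the labels. It stood at 36.3, 34.4 and 36.6 CPM (counts scaled to a common library total) in NC, at 37.1, 39.8 and 40.0 CPM in SM2 and at 60.6, 57.5 and 62.4 CPM in SM4. The difference was 0.75 ± 0.05 (log2 fold change ± SE) for the libraries labelled SM4 (adjusted p = 2.21e-09, edgeR quasi-likelihood test) and 0.12 ± 0.05 for the libraries labelled SM2 (adjusted p = 0.120). METTL3 was also higher in SM4 than in SM2, by 0.63 ± 0.05 (adjusted p = 7.46e-08, same test). The labels may be exchanged between groups, with SM4 as the control and NC and SM2 as the knockdowns. The fold changes that the study lists per hairpin raise the same doubt. For METTL3, PECAM1 and LYZ they closely match, with the sign turned, SM4 against NC for 1 hairpin and SM4 against SM2 for the other. If the labels are exchanged, a difference of SM4 from NC or from SM2 would read in the opposite direction as knockdown against control. SM2 against NC would then compare 2 knockdowns. NC, SM2 and SM4 are therefore used below only as the labels of these libraries, and a direction given for SM2 or SM4 is not a direction for cells with less METTL3 mRNA. Within SM2, replicate 3 differed from replicates 1 and 2 by a chi-square per degree of freedom of 15.0 and 12.5, against 3.97 to 5.61 for the other pairs within groups, and values without it are given where they differ. The 6 epithelial markers examined summed to between 10218 and 12107 CPM, whereas 6 of 8 leukocyte markers, 5 of 6 fibroblast markers and 4 of 5 endothelial markers stayed under 1 CPM in every library. The endothelial markers, with KDR at 0, summed to 5.45 to 5.89 CPM in NC, 7.79 to 9.05 in SM2 and 13.1 to 15.3 in SM4, nearly all of it PECAM1, which was higher by 0.59 in SM2 and 1.32 in SM4 on the log2 scale. The leukocyte markers, with MS4A1 at 0, summed to 41.3 to 45.5 CPM in NC, 59.2 to 63.2 in SM2 and 41.4 to 44.9 in SM4. Their sum was mostly LYZ, at 36.7, 51.9 and 32.7 CPM in the 3 groups, and CD14, at 5.76, 8.48 and 10.3 CPM, so that CD14 was higher and LYZ lower in SM4 than in NC (log2 fold changes 0.83 and −0.17, adjusted p = 1.46e-06 and 0.0376). The part of these markers in the results below was not tested.

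NF-κB is a family of dimeric transcription factors that drives inflammatory, survival and immune genes. In resting cells IκB proteins hold the dimers in the cytoplasm, and a signal from a cytokine or pattern-recognition receptor activates the IKK kinases, which mark IκB for degradation and release the dimers into the nucleus. Many of the genes induced in this way encode inhibitors of the pathway or further subunits, so their mRNA levels are part of a feedback circuit, and in epithelial cancers the pathway is known for its links to inflammation and cell survival. mRNA levels do not report nuclear NF-κB activity, which depends on the location of the proteins.

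Because several of these genes are known NF-κB targets themselves, the bases just upstream of their start sites were searched for the κB consensus, the 10-base sequence that NF-κB dimers recognise, on both strands. RefSeq promoters (GRCh38.p14) were matched for 8 of the 10 genes, and the window was the 250 bases before each annotated start. The κB consensus was present in the window of at least 1 start for 6 of the 8 genes, namely NFKB1, NFKB2, REL, NFKBIA, TNFAIP3 and BIRC3. It was not found in these windows of RELA and TRAF1. Among all 35116 RefSeq promoters 9.96% held it, as did 11.8% of the 27305 genes they belong to. Counted by start, 7 of the 14 starts of the 8 genes held it. The REL match lay inside an annotated exon of REL. NFKB2 had none at its first start, and its matches, before later starts, lay within the annotated gene. A match describes the letters and does not show that a protein is bound. The 4 sequences below, in the direction of transcription on GRCh38 and with the κB matches in capitals, are shown because they include BIRC3, the gene with the largest difference between groups, and 3 genes with smaller differences. They stop before the first annotated exon of the gene.
BIRC3, chr11:102317234-102317483, plus strand: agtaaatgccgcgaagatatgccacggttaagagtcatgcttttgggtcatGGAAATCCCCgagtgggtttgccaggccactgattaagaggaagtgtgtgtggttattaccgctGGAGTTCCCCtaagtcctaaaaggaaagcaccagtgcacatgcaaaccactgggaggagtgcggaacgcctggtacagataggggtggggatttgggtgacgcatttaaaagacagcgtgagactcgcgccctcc
NFKBIA, chr14:35404750-35404999, minus strand: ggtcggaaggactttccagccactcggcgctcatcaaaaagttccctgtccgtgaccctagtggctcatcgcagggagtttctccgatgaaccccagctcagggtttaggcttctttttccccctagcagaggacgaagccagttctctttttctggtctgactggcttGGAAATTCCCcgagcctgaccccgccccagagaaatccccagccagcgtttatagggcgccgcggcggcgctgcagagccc
TNFAIP3, chr6:137867009-137867213, plus strand: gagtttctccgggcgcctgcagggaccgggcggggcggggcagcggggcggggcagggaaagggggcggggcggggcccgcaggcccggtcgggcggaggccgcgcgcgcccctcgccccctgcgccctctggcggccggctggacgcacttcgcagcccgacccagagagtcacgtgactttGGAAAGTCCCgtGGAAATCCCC
NFKB1, chr4:102501109-102501329, plus strand: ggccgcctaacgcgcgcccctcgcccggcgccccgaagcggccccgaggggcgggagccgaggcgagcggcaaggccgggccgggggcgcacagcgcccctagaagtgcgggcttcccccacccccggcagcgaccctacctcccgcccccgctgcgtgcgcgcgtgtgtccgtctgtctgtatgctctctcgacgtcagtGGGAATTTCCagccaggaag
The BIRC3 matches lay at −199 to −190 and −135 to −126 relative to the RefSeq start, and those of TNFAIP3 at −67 to −58 and −55 to −46. NFKBIA had a match at −81 to −72 and NFKB1 at −49 to −40.

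The 10 genes spanned a wide range of mRNA levels. Expressed as CPM per kilobase of exon, which allows genes to be compared, the order in NC was BIRC3, NFKBIA, RELA, NFKB2, TNFAIP3, NFKBIE, RELB, NFKB1, REL and TRAF1. BIRC3 stood at 118 ± 5.26 CPM per kb (SD, n = 3) and NFKBIA at 77.7 ± 1.21, whereas TRAF1 stood at 0.965 ± 0.0163. The same order held in SM2 and SM4. Among neighbours in this order, the libraries overlapped only between TNFAIP3 (10.2 ± 0.331 CPM per kb) and NFKBIE (9.67 ± 0.393) in NC, and between REL (1.19 ± 0.220) and TRAF1 (0.976 ± 0.0239) in SM2. With the length of the longest annotated transcript in place of all exons, up to 4 of the 45 pairs of genes changed places in a group. NFKB1 then ranked 5 in NC, and NFKBIA ranked above BIRC3 in SM2 and SM4. Among the subunits RELA had the most mRNA per kilobase, at 45.8% ± 0.426 of the summed subunit level in NC, 45.8% ± 1.03 in SM2 and 49.8% ± 0.325 in SM4. NFKB2 contributed 28.9% ± 0.306, 29.5% ± 1.33 and 26.4% ± 0.117 in the same groups.

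**Figure D1:**
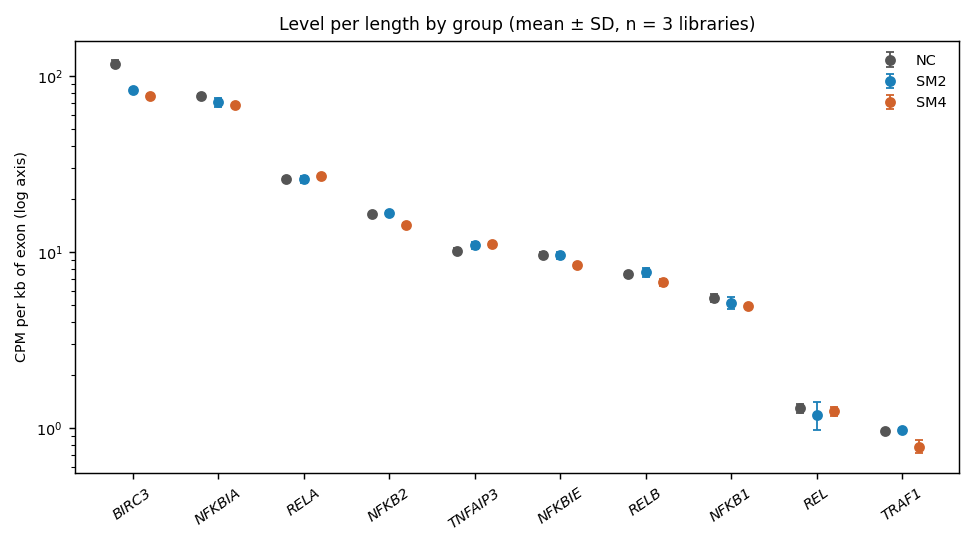
Level of each gene in CPM per kilobase of exon (log axis) for NC, SM2 and SM4, as the mean with SD over 3 libraries. BIRC3 and NFKBIA led in every group, with BIRC3 at 118 CPM per kb in NC, and REL and TRAF1 were lowest at about 1.

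Against NC, 1 of the 10 genes was called in the libraries labelled SM2 at an adjusted p below 0.05. This gene was BIRC3, which was lower. In the libraries labelled SM4, 5 of the 10 were called, all lower: BIRC3, NFKB2, NFKBIA, NFKBIE and NFKB1. No gene of the 10 was called higher in either comparison. Over all 19674 genes tested, 22.3% were called in SM2 against NC (12.0% higher and 10.3% lower) and 21.2% in SM4 against NC (11.0% higher and 10.2% lower). The median log2 fold change of the 10 genes was −0.01 in SM2 and −0.17 in SM4, beside medians of −0.004 and −0.001 over all genes. The comparisons share the NC libraries. In SM4 against SM2, which tests whether the 2 groups differ in their distance from NC, 2 of the 10 genes were called, both lower in SM4, namely NFKB2 and NFKBIE. Over all genes 12.8% were called in that comparison, 6.04% higher and 6.76% lower. In bulk RNA, fewer cells expressing a gene and less of its mRNA per cell cannot be told apart.

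The libraries of SM2 and NC did not overlap for 2 of the 10 genes, BIRC3 and NFKBIA, compared with 35.2% of all genes. Those of SM4 and NC did not overlap for 8 of the 10, with 7 below and TNFAIP3 above, compared with 38.4% of all genes. For SM4 and SM2 this held for 5 of the 10, all below, compared with 28.3% of all genes.

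**Figure D2:**
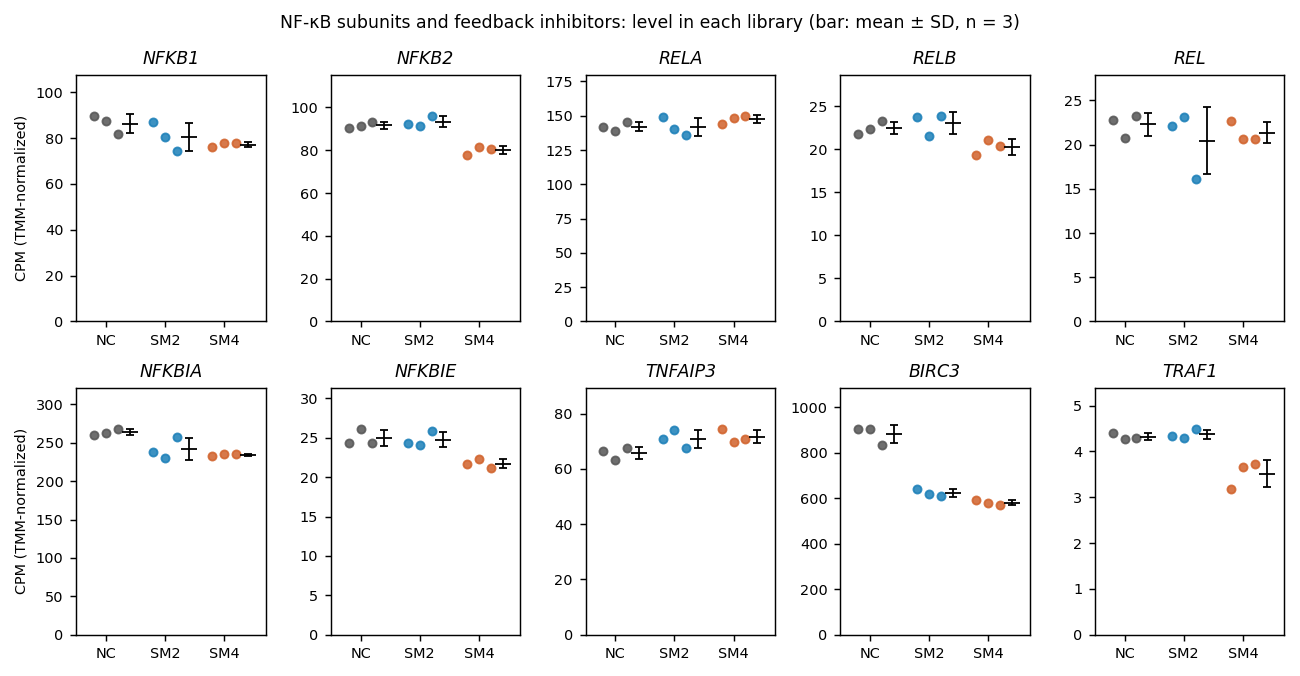
TMM-normalized CPM of each gene in each of the 9 libraries (points), with the mean and SD of each group (black, n = 3); each vertical axis starts at 0. BIRC3 separates NC (836 to 905 CPM) from SM2 and SM4 (571 to 641 CPM), whereas RELA overlaps among all 3 groups.

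NFKB1 encodes the p105 precursor of the p50 subunit (ENSG00000109320.13, chr4:102501330-102617302, plus strand). Its level was 89.7, 87.4 and 81.8 CPM in NC, 86.9, 80.3 and 74.3 CPM in SM2, and 75.9, 77.8 and 77.7 CPM in SM4. All SM4 libraries were below all NC libraries, while SM2 overlapped both groups. The log2 fold change was −0.16 ± 0.05 in SM4 (adjusted p = 0.0390) and −0.10 ± 0.05 in SM2 (adjusted p = 0.209). The SM4 call was lost when NC replicate 1 or 2, SM2 replicate 2 or any 1 SM4 library was left out, with values from −0.17 to −0.13, and the adjusted p ranged from 0.00231 to 0.188 over all alternatives. Without SM2 replicate 1, NFKB1 was called lower in SM2 as well (−0.16, adjusted p = 0.0401).

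NFKB2 encodes p100, which is both an IκB-like inhibitor and the precursor of p52 in the noncanonical pathway (ENSG00000077150.20, chr10:102394110-102402524, plus strand). It was measured at 90.2, 91.4 and 93.3 CPM in NC, 92.4, 91.4 and 96.1 CPM in SM2, and 77.9, 81.4 and 80.7 CPM in SM4. All SM4 libraries lay below the other 6, which overlapped one another. NFKB2 fell by 0.20 ± 0.04 on the log2 scale in SM4 against NC (adjusted p = 0.00264) and by 0.22 ± 0.04 in SM4 against SM2 (adjusted p = 0.00158), and both calls held in 16 of 16 alternatives. In SM2 against NC the difference was 0.03 ± 0.04 (adjusted p = 0.740), with a 95% interval of −0.07 to 0.12.

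RELB encodes the subunit that pairs with p52 in the noncanonical pathway (ENSG00000104856.14, chr19:45001461-45038192, plus strand). Its libraries gave 21.8, 22.4 and 23.3 CPM in NC, 23.7, 21.6 and 23.9 CPM in SM2, and 19.3, 21.1 and 20.4 CPM in SM4. The SM4 libraries were again the lowest, without overlap with either group. The differences did not pass the test, with −0.15 ± 0.07 in SM4 against NC (adjusted p = 0.114) and −0.19 ± 0.07 in SM4 against SM2 (adjusted p = 0.0695). The latter was called without SM2 replicate 2 (−0.23, adjusted p = 0.0474). In SM2 against NC RELB differed by 0.04 ± 0.07 (adjusted p = 0.770).

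RELA encodes p65, the main transactivating subunit of the canonical pathway (ENSG00000173039.19, chr11:65653599-65663090, minus strand). It read 142, 139 and 145 CPM in NC, 149, 140.1 and 136 CPM in SM2, and 144, 148 and 150.0 CPM in SM4, and the 3 groups overlapped. The log2 fold change was −0.001 in SM2 (95% interval −0.10 to 0.09, adjusted p = 0.988) and 0.06 in SM4 (−0.04 to 0.15, adjusted p = 0.430). RELA was not called in either comparison under any of the 16 alternatives. RELA-DT, a lncRNA on the opposite strand, shares 103 exonic bases with it.

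REL encodes c-Rel, a subunit best known from lymphocytes (ENSG00000162924.15, chr2:60881491-60931612, plus strand). Its values were 22.8, 20.8 and 23.3 CPM in NC, 22.1, 23.1 and 16.1 CPM in SM2, and 22.7, 20.6 and 20.6 CPM in SM4. Replicate 3 of SM2 was the lowest of the 9 libraries and the other 8 overlapped. Neither SM2 (−0.13 ± 0.10, adjusted p = 0.410) nor SM4 (−0.06 ± 0.10, adjusted p = 0.720) was called, and without SM2 replicate 3 the SM2 value was 0.03. A lncRNA on the same strand, ENSG00000267520, shares 5702 of the 17129 exonic bases of REL, so the count of REL is uncertain.

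**Figure D3:**
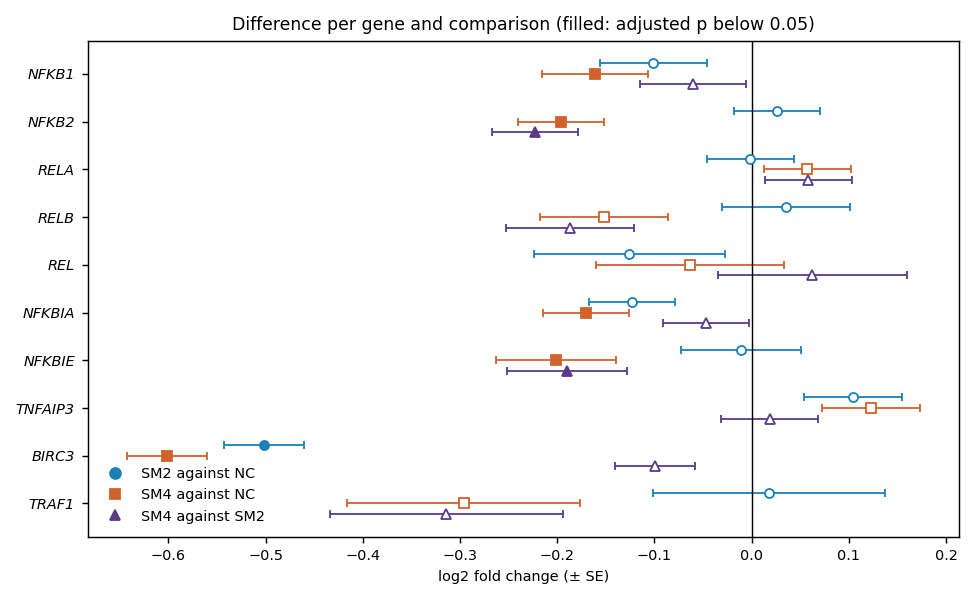
Log2 fold change with SE for each gene in SM2 against NC (circles), SM4 against NC (squares) and SM4 against SM2 (triangles); filled symbols passed an adjusted p of 0.05. BIRC3 at −0.50 and −0.60 stands apart from the other genes, and NFKB2 and NFKBIE are the filled triangles.

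NFKBIA encodes IκBα, the inhibitor that NF-κB induces to end its own response (ENSG00000100906.11, chr14:35401079-35404749, minus strand). It stood at 259.9, 263 and 268 CPM in NC, at 238, 229.9 and 258 CPM in SM2, and at 233, 235 and 235 CPM in SM4. Every SM2 and SM4 library was below every NC library, and the nearest was SM2 replicate 3. NFKBIA fell by 0.17 ± 0.04 on the log2 scale in SM4 (adjusted p = 0.00787), and the call held in 16 of 16 alternatives. In SM2 the value was −0.12 ± 0.04 with an adjusted p of 0.0507. Without SM2 replicate 3 it was −0.17 (adjusted p = 0.00158), and it was also called with the replicate block and by DESeq2 (adjusted p = 0.0327 and 0.0287). SM4 against SM2 gave −0.05 ± 0.04 (adjusted p = 0.561).

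NFKBIE encodes IκBε, a further inducible inhibitor (ENSG00000146232.17, chr6:44258166-44265788, minus strand). It had 24.3, 26.1 and 24.4 CPM in NC, 24.3, 24.1 and 25.9 CPM in SM2, and 21.7, 22.3 and 21.1 CPM in SM4. As for NFKB2, the SM4 libraries lay below the other 6, which overlapped. NFKBIE fell by 0.20 ± 0.06 in SM4 against NC (adjusted p = 0.0230), a call lost without NC replicate 2, SM4 replicate 1 or SM4 replicate 3 (−0.20 to −0.17, adjusted p up to 0.127). SM4 against SM2 gave −0.19 ± 0.06 (adjusted p = 0.0471), which held in 3 of 16 alternatives only and was lost when any 1 library was left out. In SM2 against NC it was −0.01 ± 0.06 (adjusted p = 0.930).

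TNFAIP3 encodes A20, a ubiquitin-editing enzyme induced by NF-κB that shuts off signalling from the receptor complexes (ENSG00000118503.15, chr6:137867214-137883314, plus strand). Its level was 66.6, 63.4 and 67.4 CPM in NC, 70.9, 73.9 and 67.4 CPM in SM2, and 74.4, 69.8 and 70.6 CPM in SM4. All SM4 libraries were above all NC libraries, whereas SM2 replicate 3 was below the highest NC library. The log2 fold change was 0.12 ± 0.05 in SM4 (adjusted p = 0.0905) and 0.10 ± 0.05 in SM2 (adjusted p = 0.154), so neither passed the test. Without SM2 replicate 3 TNFAIP3 was called higher in SM4 (0.13, adjusted p = 0.0289) and in SM2 (0.14, adjusted p = 0.0316). WAKMAR2, a lncRNA on the opposite strand, shares 95 exonic bases with it.

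BIRC3 encodes cIAP2, a ubiquitin ligase of the tumour necrosis factor receptor complexes that also restrains the noncanonical pathway (ENSG00000023445.16, chr11:102317484-102339403, plus strand). It was measured at 903, 905 and 836 CPM in NC, 641, 618 and 608 CPM in SM2, and 594, 578 and 571 CPM in SM4. Every SM2 library was below every NC library and above every SM4 library. BIRC3 was reduced in SM2, with a log2 fold change of −0.50 ± 0.04 or −29.4% (adjusted p = 2.03e-08). In SM4 the reduction was −0.60 ± 0.04 or −34.1% (adjusted p = 1.04e-09). Both calls held in 16 of 16 alternatives, from −0.54 to −0.48 and from −0.64 to −0.58. The difference of SM4 from SM2 was −0.10 ± 0.04 on the log2 scale (adjusted p = 0.127), which was called without SM2 replicate 3 alone (−0.12, adjusted p = 0.0441). A lncRNA on the opposite strand, ENSG00000288528, shares 126 exonic bases with BIRC3.

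BIRC2, which encodes the paralogous ligase cIAP1 and is also on chromosome 11, was examined beside it because reads from near-identical stretches of the 2 genes could be split between them. BIRC2 stood at 136, 139 and 128 CPM in NC, 114, 112 and 112 CPM in SM2, and 102, 100.2 and 101 CPM in SM4. It fell by 0.26 ± 0.04 in SM2 (adjusted p = 0.000158) and by 0.41 ± 0.04 in SM4 (adjusted p = 5.48e-07). Both genes were thus lower in both groups, and whether reads were split between them was not tested. Among 14411 genes with a mean of at least 1 CPM, those whose centred log2 CPM followed BIRC3 most closely over the 9 libraries were RAB31, JAG1 and THBD, with root mean square differences of 0.04, 0.04 and 0.05 beside a median of 0.29. RAB31 encodes a small GTPase of vesicle transport, JAG1 a Notch ligand and THBD thrombomodulin.

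TRAF1 encodes an adaptor that binds cIAP proteins at tumour necrosis factor receptors (ENSG00000056558.11, chr9:120902393-120929173, minus strand). It gave 4.40, 4.27 and 4.29 CPM in NC, 4.33, 4.29 and 4.49 CPM in SM2, and 3.17, 3.66 and 3.73 CPM in SM4. The SM4 libraries were below the other 6, which overlapped. The differences were −0.30 ± 0.12 in SM4 against NC (adjusted p = 0.0872) and −0.31 ± 0.12 in SM4 against SM2 (adjusted p = 0.0957), and neither passed the test in any alternative. In SM2 against NC TRAF1 differed by 0.02 ± 0.12 (adjusted p = 0.943), with a 95% interval of −0.23 to 0.27.

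By role, none of the 5 subunit genes was called in SM2 and 2 were called lower in SM4, with median log2 fold changes of −0.001 and −0.15. Over all genes tested, 22.3% were called in SM2 and 21.2% in SM4, with 10.3% and 10.2% lower. Of the 2 IκB genes, none was called in SM2 and both were lower in SM4. Of the 3 genes acting at receptor complexes, BIRC3 was lower in both groups and the other 2 were not called. TNFAIP3 had a positive difference and TRAF1 a negative one in SM4.

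The other genes of the pathway were followed in 6 lists that name its ligands, receptors, adaptors and ubiquitin ligases, kinases, other inhibitors and textbook target genes. Of their 121 genes, 116 were tested. In SM2 against NC 20 were called higher and 24 lower, and in SM4 against NC 17 were called higher and 35 lower, beside the shares of all genes given above. The median log2 fold change was −0.04 and −0.05.

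Among the remaining inhibitors and feedback regulators, the list closest to the IκB genes, 1 of 18 was called higher and 1 lower in SM2. In SM4 none was called higher and 5 lower. The shares of all genes called were 22.3% in SM2 and 21.2% in SM4. TNIP3, an A20-binding protein, fell by 0.97 ± 0.14 in SM2 and by 1.59 ± 0.15 in SM4 (adjusted p = 4.01e-05 and 8.48e-08). CYLD, a deubiquitinase that opposes IKK activation, was the gene called higher in SM2 (0.28 ± 0.07, adjusted p = 0.00663), and this was lost without NC replicate 2 or SM2 replicate 2. The other 4 genes lower in SM4, named after their values were seen, were TNIP1, RNF11, ZC3H12A and TRAF3IP2, with differences between −0.40 and −0.26. The further IκB family genes NFKBIB, NFKBID, NFKBIZ and BCL3, also named after their values were seen, were not called in either comparison.

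Of the 11 kinases, 2 were higher and 2 lower in each comparison. IKBKB, the IKKβ kinase that phosphorylates IκBα, was higher in SM4 by 0.32 ± 0.05 (adjusted p = 3.70e-05), and its partner CHUK was lower in SM2 by 0.27 ± 0.05 (adjusted p = 0.000284). In SM4 CHUK differed by −0.13 (adjusted p = 0.0579), which was called in 3 of 16 alternatives, including without SM2 replicate 3 (−0.13, adjusted p = 0.0305). IKBKB was higher in SM2 as well (0.17 ± 0.05, adjusted p = 0.0126), a call lost without NC replicate 1, NC replicate 2 or SM2 replicate 2. Of the 10 ligands tested, 2 were higher and 4 lower in each comparison. TNFSF10, the death ligand TRAIL, was higher by 1.25 ± 0.09 in SM2 and 1.08 ± 0.09 in SM4, whereas IL1A, an inflammatory cytokine, fell by 0.49 ± 0.08 and 1.15 ± 0.08. Among 15 receptors 2 were higher and 2 lower in SM2, and 4 were higher and 3 lower in SM4. Among 24 adaptors and ubiquitin ligases, BIRC2 included, 3 were higher and 4 lower in SM2, and 3 higher and 1 lower in SM4. Beside these lists, 22.3% of all genes were called in SM2 and 21.2% in SM4.

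Of the 38 textbook target genes tested, 10 were higher and 11 lower in SM2, and 6 higher and 20 lower in SM4. In SM4 against SM2 3 were higher and 19 lower. The shares of all genes called were 22.3% in SM2, 21.2% in SM4 and 12.8% in SM4 against SM2. The median log2 fold change of the list was −0.02 in SM2 and −0.16 in SM4, beside −0.004 and −0.001 over all genes.

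**Figure D4:**
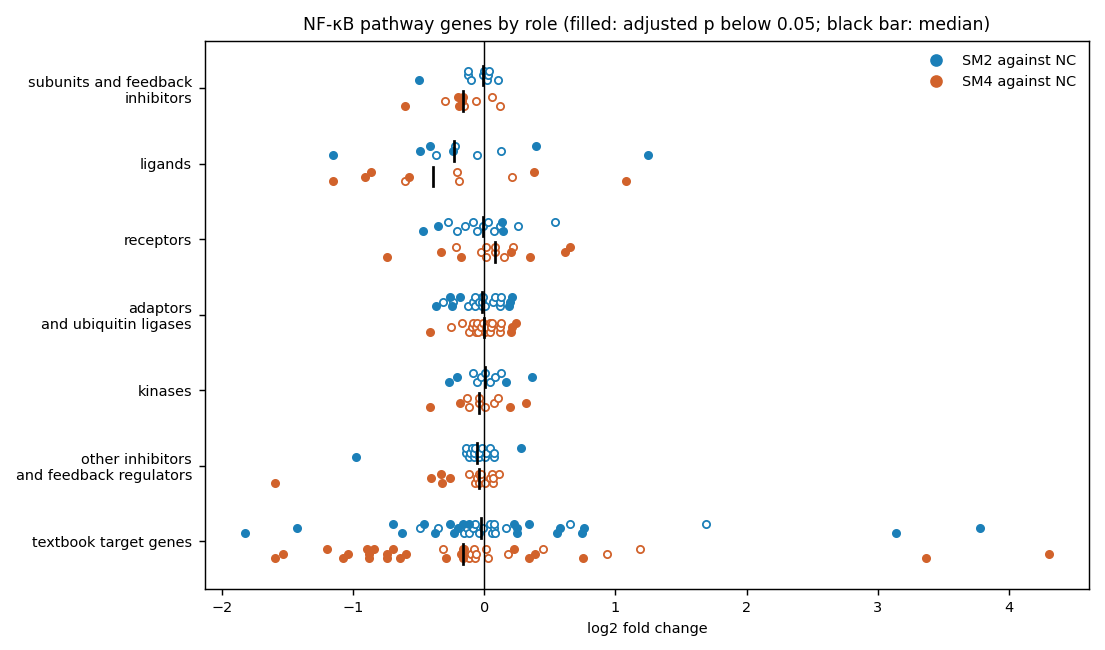
Log2 fold change in SM2 against NC and SM4 against NC of the 10 subunit and feedback genes and of 6 lists of other pathway genes; each point is a gene, filled where the adjusted p was below 0.05, and black bars are medians. The 10 genes lie between −0.60 and 0.12, a narrower range than the target genes, which reach −1.82 and 4.31.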

How the data were processed

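The table held raw counts per gene for 9 polyA-selected libraries, deposited by the authors without normalization. Per the labels, the counts were made with fastp, HISAT2 and featureCounts (Subread) on GRCh38, with no versions given. The labels name a stranded TruSeq kit and the series text paired-end reads, whereas the study's methods name an NEBNext kit and single-end reads, and whether counting used strand is not given in the sources used here. Reads of antisense partners may therefore share counts.

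Groups and replicate numbers came from the sample titles. Identifiers were matched without their version to GENCODE 44, and 60463 of 60649 matched. Genes were filtered with filterByExpr, scaled by TMM (factors 0.989 to 1.01) and compared in a single edgeR (4.0.16, R 4.3.3) quasi-likelihood fit of all 9 libraries with group as the only term. P-values were adjusted over all 19674 genes by the Benjamini-Hochberg method, and the threshold for a call was 0.05. CPM values are TMM-normalized, with ± as SD for levels and SE for log2 fold changes. The libraries held 44103272 to 63693728 counts, with a common biological coefficient of variation of 0.0587.

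The alternatives were DESeq2 (1.42.0), DESeq2 size factors or upper-quartile scaling within edgeR, 2 other filters, only the 6 libraries compared, a replicate block and leaving out each library. Replicate numbers were not used as pairs in the main fit. The 9 correlations of same-numbered libraries lay between −0.053 and 0.0453, and those of differently numbered libraries between −0.0651 and 0.0923. With 3 libraries per group, such small correlations cannot settle whether the numbers pair libraries. The 10 genes, the pathway lists and the marker lists were chosen with earlier results of these data known. Of the other pathway genes with a mean of at least 1 CPM and no overlap between groups, those eligible to be named were, per list and comparison with NC, the 1 called gene with the largest rise and the 1 with the largest fall (4 and 4 for target genes, and 2 and 2 of these for SM4 against SM2). The 3 genes most like BIRC3, the member with the largest spread of group means, were also named. Genes named outside this rule are marked as such, and a gene that the rule names is not reported here. Levels per kilobase used the union of exons.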

Additional observations from a re-analysis of the deposited data

Results flagged for a closer look

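Each of the results here differed between SM4 and SM2 in the edgeR quasi-likelihood test of that difference, so that the distance from NC was not the same in the 2 groups. Values are log2 fold changes of SM4 against SM2, and no cause was tested.

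Among the subunits and inhibitors these were NFKB2 (−0.22, adjusted p = 0.00158) and NFKBIE (−0.19, adjusted p = 0.0471), and the latter call was lost when any 1 library was left out and under 4 of the 7 other settings. NFKB2 differed by 0.03 in SM2 and −0.20 in SM4 against NC.

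Among upstream genes, IL1A (−0.67), TLR2 (−0.86), BIRC2 (−0.15), MAP3K8 (−0.55) and IKBKE (−0.39) were lower in SM4, whereas IL1B (0.28) and IKBKB (0.15) were higher. Against NC, however, IL1B was lower in both groups (−1.15 in SM2 and −0.87 in SM4). MAP3K8, a kinase of the pathway, was 0.36 above NC in SM2 and −0.19 in SM4, where leaving out any of NC replicates 2 and 3 and SM4 replicates 2 and 3, upper-quartile scaling or no filter ended the call. The BIRC2 call was lost without SM2 replicate 1 or 2 or any 1 SM4 library. The TLR2 call was lost without SM2 replicate 1 or SM4 replicate 1 or 2, and with only the 6 libraries compared. TLR2 was low, at 1.23 CPM in SM2 and 0.681 CPM in SM4, with 34 to 68 counts per library in these groups. The IL1B call was lost without NC replicate 2, SM2 replicate 1 or 2, or SM4 replicate 2 or 3, with no filter and with only the 6 libraries. The IKBKB call was lost without any 1 NC library, SM2 replicate 1 or SM4 replicate 1 or 3, and likewise with no filter and with only the 6 libraries.

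Among the other inhibitors, CYLD (−0.23) and TNIP3 (−0.62) were lower in SM4 than in SM2. The CYLD call was lost without SM2 replicate 2 or SM4 replicate 1 or 3, and that of TNIP3 without SM2 replicate 1.

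Among target genes, CXCL3 (−1.04), CXCL5 (−1.63), CXCL8 (−0.50), CSF2 (−0.41), BCL2A1 (−1.18) and CFB (−0.23) were lower in SM4, and VCAM1 (1.17) and IL6 (1.08) were higher. Against NC, however, CFB was higher in both groups (0.58 in SM2 and 0.34 in SM4). The CSF2 call was lost without SM2 replicate 1 or SM4 replicate 1, and that of CFB without SM2 replicate 2 or SM4 replicate 1 or 2. BCL2A1 was low, at 1.34 CPM in SM2 and 0.588 CPM in SM4, with 26 to 76 counts per library in these groups.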

How the results depend on the processing

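Of the results recomputed under 7 alternative settings, 764 values kept their direction and side of the threshold, 14 lost the threshold, 14 gained it and 6 changed sign. With 1 library left out, the same numbers were 917, 75, 10 and 24. The cause was not tested. For SM2 against NC, 2 of the 10 genes instead of 1 were called with DESeq2 size factors, with a mean of at least 1 CPM, by DESeq2 and with the replicate block, NFKBIA being added each time, and 1 to 3 were called with 1 library left out. For SM4 against NC, 3 to 6 instead of 5 were called with 1 library left out. For SM4 against SM2, 1 instead of 2 was called with DESeq2 size factors, upper-quartile scaling, no filter and only 6 libraries, and 1 to 2 with 1 library left out. The call of NFKB1 in SM4 was also lost under upper-quartile scaling and that of NFKBIE without a filter, and TNFAIP3 was called higher in SM4 under upper-quartile scaling and with only 6 libraries. By longest transcript, 4 pairs of genes changed order per kilobase.

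The replicate block changed no other call of the 10 genes. By number, 5 of 9 libraries correlated best with their own number in both other groups. The replicate block raised the genes called, over all genes tested, from 4389 to 4693 in SM2 against NC. The rise was from 4173 to 4484 in SM4 against NC and from 2518 to 2815 in SM4 against SM2.

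No value that changed sign was called, and the largest, TLR5 in SM2 against NC, reached 0.154 without SM2 replicate 2. In SM2 against NC, RELA was 0.0122 (upper-quartile scaling), 0.00112 (no filter) and 0.00371 (mean of at least 1 CPM), NFKBIE 0.00320 and TLR5 0.00199 (upper-quartile scaling). With the replicate block CXCL10 was 0.00374 in SM4 against SM2. With 1 library left out, the ranges in SM2 against NC were −0.0408 to 0.0320 for RELA, −0.226 to 0.0252 for REL, −0.0411 to 0.0227 for NFKBIE, −0.258 to 0.154 for TLR5, −0.0322 to 0.215 for TLR2 and −0.0552 to 0.00483 for IKBKE. In SM4 against NC, CYLD ranged from −0.000372 to 0.103. In SM4 against SM2 the ranges were −0.0854 to 0.164 for REL, −0.0792 to 0.000576 for NFKBIA, −0.0163 to 0.0547 for TNFAIP3, −0.0510 to 0.0184 for IRAK1 and −0.103 to 0.109 for CXCL10.

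Among the 10 genes depth limits TRAF1 most, with 191 to 251 counts per library.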

Other observations

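The target genes included cytokines and an adhesion molecule, VCAM1, whose changes were far larger than those of the subunits. ICAM1, another adhesion molecule, named after its values were seen, stood at 108, 99.8 and 104 CPM in NC, SM2 and SM4. PTGS2, the inducible cyclooxygenase, stood at 105, 89.8 and 105 CPM in NC, 37.7, 39.4 and 34.7 CPM in SM2, and 33.4, 32.5 and 33.1 CPM in SM4. It fell by 1.42 ± 0.06 in SM2 and by 1.60 ± 0.06 in SM4 on the log2 scale (edgeR adjusted p = 2.56e-12 and 1.92e-13). VCAM1, an adhesion molecule for leukocytes, was near 0.5 CPM in NC and reached 4.58 ± 0.415 CPM in SM2 and 10.3 ± 0.904 CPM in SM4 (SD, n = 3), differences of 3.14 ± 0.19 and 4.31 ± 0.18. IRF1, an interferon-responsive transcription factor, was higher by 0.39 ± 0.05 in SM4 and by 0.25 in SM2 (edgeR adjusted p = 0.00154 in SM2). For IRF1, SM4 against SM2 was not called (0.14, adjusted p = 0.103), but it was called without SM2 replicate 3 (0.17, adjusted p = 0.0250). PTGS2 likewise was not called in SM4 against SM2 (−0.17, adjusted p = 0.0844), but was called without SM2 replicate 3 (−0.22, adjusted p = 0.0111).

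The neutrophil chemokine genes CXCL8, CXCL5 and CXCL3 were all lower in SM4 than in NC but did not move alike in SM2. CXCL8 gave 194, 193 and 178 CPM in NC, 114, 109.6 and 125 CPM in SM2, and 81.7, 87.7 and 77.2 CPM in SM4, lower in every library of both groups. CXCL5 was higher in SM2 (0.75 ± 0.06, adjusted p = 5.10e-09) and lower in SM4 (−0.88 ± 0.06, adjusted p = 6.01e-10), and CXCL3 was lower in SM4 (−1.08 ± 0.05) but differed by −0.04 ± 0.05 in SM2 (adjusted p = 0.593). IL6 fell by 1.82 ± 0.16 in SM2 and by 0.74 ± 0.16 in SM4. These calls against NC held in 16 of 16 alternatives.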
